A study of Mus musculus with 6 samples.

Results

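Intercalated cells are scattered acid-base cells of the connecting tubule and collecting duct of the kidney. Type A cells secrete acid through apical proton pumps and return bicarbonate to the blood, whereas type B cells secrete bicarbonate in exchange for chloride. The described genes are 10 identity and transport genes of these cells without the subunits of the vacuolar proton pump. They are Slc4a1, Slc26a4, Slc4a9, Foxi1, Rhbg, Rhcg, Car2, Insrr, Kit and Atp4a, chosen by name with earlier results of these data known. Each matched 1 of the 56923 gene identifiers counted. All 10 passed the filter on low counts, among 18273 genes tested.

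Messenger RNA was measured in 6 whole, snap-frozen kidneys of male mice aged 10 weeks, 3 in each of 2 groups. Control mice were Pkd1flox/flox.Tet-O-Cre and lacked the Pax8rtTA activator. Knockout mice (Pkd1 KO) were Pkd1flox/flox.Pax8rtTA.Tet-O-Cre, in which doxycycline lets Cre delete Pkd1, the polycystin-1 gene mutated in polycystic kidney disease, in cells that use the Pax8 promoter. Both groups therefore carried floxed Pkd1 and the Cre transgene, and both were given doxycycline (2 mg/ml, with 5% sucrose) in the drinking water between postnatal days 28 and 42. The question was which transcripts differ between kidneys with induced tubular deletion and kidneys of controls described as free of cysts.

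Libraries held 45020173 to 62983791 gene counts. Levels are counts per 1000000 counts of the scaled library (CPM). Pkd1 itself was at 23.6 to 46.4 CPM in controls and 8.77 to 10.0 CPM in Pkd1 KO kidneys (log2 fold change −1.85 ± 0.24, adjusted p = 0.00235, and −0.53 ± 0.13 in the offset fit described next, adjusted p = 0.0112). The run names carry 1 project number for every control and another for every Pkd1 KO library, so sequencing project cannot be told apart from genotype. The labels number the kidneys and do not tie them to separate animals, so p-values measure the spread between these samples, which may in part be technical. In a whole kidney, fewer intercalated cells and less RNA per intercalated cell cannot be told apart. A second fit with an offset for GC content and exon length (the offset fit) is given where it changes a call or moves a value markedly.

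The genes divided into those that were lower in Pkd1 KO kidneys and those for which no change was called. Lower were the type A exchanger Slc4a1 and the proton pump Atp4a, the type B exchanger Slc26a4, both ammonia channels, the alkali sensor Insrr and the receptor kinase Kit. No call was made for Foxi1, the transcription factor on which intercalated cells depend, the cytosolic carbonic anhydrase Car2 and the type B transporter Slc4a9. In numbers, 7 of 10 were called lower and 0 higher in edgeR's quasi-likelihood test at an adjusted p of 0.05. Over all tested genes 46.9% were called, 24.2% lower and 22.7% higher. The median log2 fold change was −0.97 for the 10 genes and 0.03 for all tested genes. Because the 10 were chosen with earlier results known, these shares describe them and are no test. The Pkd1 KO values all lay below the control values for 8 of the 10 genes, against 30.0% of all tested genes. One of the 8 was Car2, whose groups all but touched (366.6 and 366.5 CPM). DESeq2's own test also called 7 lower and 0 higher, and the offset fit called 6 lower and 1 higher. In the offset fit 34.5% of 17785 genes were called, 19.5% lower and 15.0% higher. With 1 library left out, the offset fit called 5 or 6 of the 10 lower, except without control 3, where it called 9. Over all genes that fit called 4095 lower, against 3473 with all 6 libraries.

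**Figure D1:**
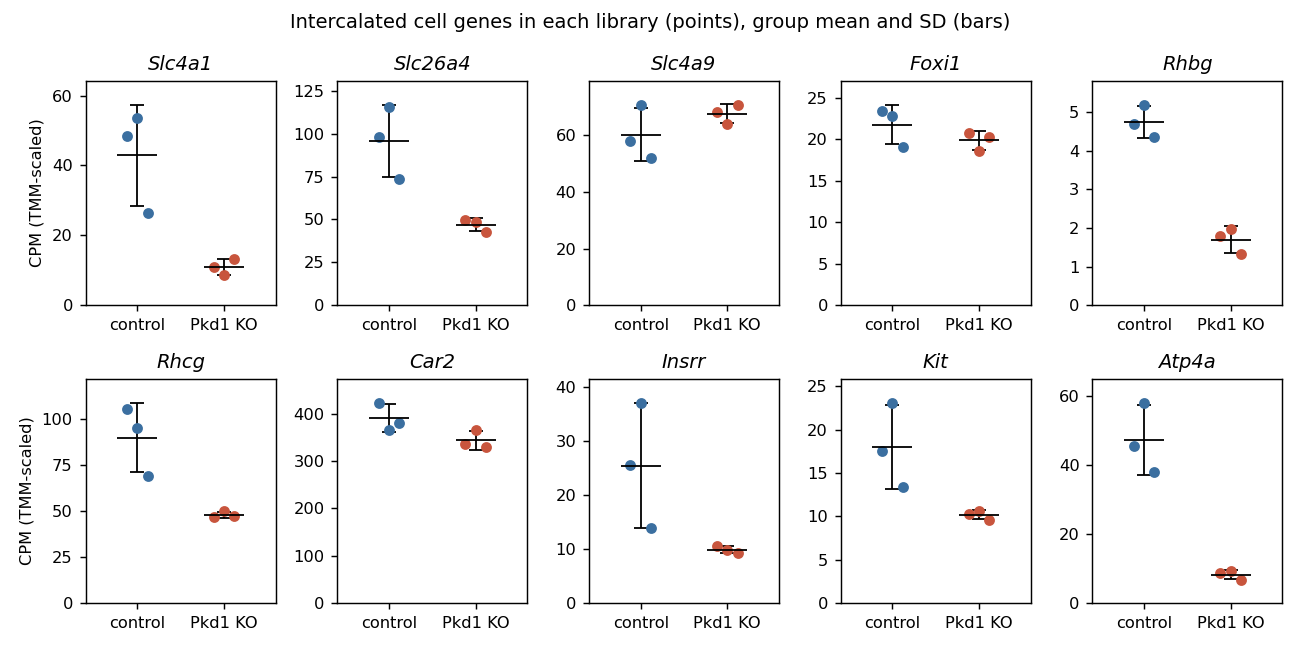
CPM on TMM-scaled library sizes of the 10 genes in each library (points), with group means (wide bars) and SD (whiskers), n = 3 kidneys per group and a vertical axis from 0 in each panel. Atp4a and Slc4a1 fall furthest, while Slc4a9 and Foxi1 overlap between groups.

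Slc4a1 (ENSMUSG00000006574) encodes AE1, the chloride-bicarbonate exchanger of the basolateral membrane of type A cells and of red blood cells. It was counted at 48.4, 53.7 and 26.5 CPM in controls 1 to 3 and at 11.0, 8.75 and 13.2 CPM in the Pkd1 KO kidneys. Even the lowest control, control 3, lay above the highest Pkd1 KO kidney. Means were 42.9 ± 14.4 and 11.0 ± 2.22 CPM (SD, n = 3 each). The log2 fold change was −1.96 ± 0.27 (SE; adjusted p = 0.00245), or 25.6% of the control level, and −1.35 ± 0.20 in the offset fit (adjusted p = 0.00211).

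Because red cells also make AE1, erythroid transcripts were read in the same libraries. Of 11 erythroid genes, 7 were tested, 1 was called higher (Epb42) and 1 lower (Klf1), and 4 stayed under 1 CPM in every library. Summed erythroid CPM ranged from 82.8 to 244.7 in controls and from 69.3 to 470.3 in Pkd1 KO kidneys, so the groups overlapped. The beta-globin gene Hbb-bs was highest among controls in control 3, at 154.4 CPM, where Slc4a1 was lowest. Among Pkd1 KO kidneys Hbb-bs was highest in Pkd1 KO 3, at 364.4 CPM, where Slc4a1 was also highest. The part of red cells in the Slc4a1 counts was not tested. Calls in this list changed with single libraries, from 0 lower without control 1 or Pkd1 KO 2 to 4 lower without Pkd1 KO 3, and 0 were higher without Pkd1 KO 2.

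Atp4a (ENSMUSG00000005553) encodes the catalytic subunit of the gastric type of H,K-ATPase, which intercalated cells use to exchange protons for potassium. Controls had 45.7, 58.1 and 38.0 CPM and Pkd1 KO kidneys 8.77, 9.29 and 6.67 CPM. The groups were far apart, and the means were 47.3 ± 10.2 and 8.25 ± 1.39 CPM. The log2 fold change of −2.52 ± 0.21 (SE; adjusted p = 0.00164), or 17.4% of the control level, was the lowest of the 10. The offset fit gave −2.07 ± 0.18 (adjusted p = 0.000879).

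Other genes of the H,K-ATPases were read beside it. The gastric beta subunit Atp4b was at or below 0.138 CPM in every library and was not tested, and 6 of 6 matched genes of the gastric mucosa list stood under 1 CPM everywhere. Atp12a, the catalytic subunit of the colonic type of the pump, was scarce but called higher. It had 0.0776, 0.432 and 0.202 CPM in controls and 0.748, 1.13 and 0.868 CPM in Pkd1 KO kidneys. Its log2 fold change was 1.92 ± 0.52 (SE; adjusted p = 0.0155), 2.70 without control 2, and 1.74 without Pkd1 KO 2, where the call ended (adjusted p = 0.0674). Atp1b1, the sodium pump beta subunit, fell by 0.65 ± 0.16 on the log2 scale (adjusted p = 0.00961). Within each library the log2 ratio of Atp4a to Atp12a counts was 9.03, 7.04 and 7.48 in controls and 3.53, 3.03 and 2.93 in Pkd1 KO kidneys. Even with this change Atp4a had more counts than Atp12a in all 6 libraries.

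Slc26a4 (ENSMUSG00000020651) encodes pendrin, the apical chloride-bicarbonate exchanger by which type B cells secrete base. Its values were 98.0, 115.5 and 73.7 CPM in controls and 49.7, 48.7 and 42.8 CPM in Pkd1 KO kidneys, again without overlap. Means were 95.7 ± 20.99 and 47.0 ± 3.75 CPM. On the log2 scale the fold change was −1.03 ± 0.18 (SE; adjusted p = 0.00342), or 49.1% of the control level.

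Slc4a9 (ENSMUSG00000024485) encodes AE4, a bicarbonate transporter of the basolateral membrane of type B cells. It did not follow Slc26a4, with 57.8, 70.5 and 52.1 CPM in controls and 68.2, 64.1 and 70.6 CPM in Pkd1 KO kidneys. The groups overlapped, with means of 60.1 ± 9.42 and 67.6 ± 3.30 CPM. Its log2 fold change was 0.17 ± 0.15 (SE; adjusted p = 0.371), with a 95% interval from −0.17 to 0.51. In the offset fit it was 0.86 ± 0.11 and called higher (adjusted p = 0.00149), also without any 1 of the 6 libraries. Slc4a9 has 6403 exonic bases and 53.9% GC.

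The difference between the type B transporters could be read without library scaling. The log2 ratio of Slc4a9 to Slc26a4 counts was −0.76, −0.71 and −0.50 in controls and 0.46, 0.40 and 0.72 in Pkd1 KO kidneys. Slc26a4 thus had more counts than Slc4a9 in every control and fewer in every Pkd1 KO kidney. The difference of means was 1.18 (exact two-sided permutation p = 0.1, the smallest that 3 against 3 allows, and 0.114 adjusted over 8 ratios). With each library's GC and length trend removed from the ratio it was 2.01, and the groups stayed apart. Between the exchangers of both cell types, the log2 ratio of Slc26a4 to Slc4a1 was 1.02, 1.11 and 1.48 in controls and 2.17, 2.48 and 1.70 in Pkd1 KO kidneys. These groups did not overlap, and the means differed by 0.91 on the log2 scale (exact permutation p = 0.1). With the GC and length trend of each library removed, the difference was 0.19, the groups overlapped and the exact permutation p was 0.5.

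Foxi1 (ENSMUSG00000047861) is the forkhead transcription factor that directs the intercalated cell program. It stood at 23.5, 22.8 and 19.1 CPM in controls and 20.8, 18.6 and 20.3 CPM in Pkd1 KO kidneys. The groups overlapped, and the means were 21.8 ± 2.38 and 19.9 ± 1.15 CPM. Its log2 fold change was −0.13 ± 0.14 (SE; adjusted p = 0.479). Its 95% interval, −0.45 to 0.20, does not reach a 2-fold decrease. The offset fit gave −0.31 ± 0.14 (adjusted p = 0.12), and of all fits run Foxi1 was called lower only in the offset fit without control 3 (−0.43, adjusted p = 0.0182). Upper-quartile scaling turned the sign, to 0.04 (adjusted p = 0.84).

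Relative to 2 transport genes of the cells in which it acts, both of which fell, Foxi1 was higher in every Pkd1 KO kidney than in any control. The 2 genes were chosen with earlier results known, so these ratios rise with their decrease and are no separate result. Slc4a9 (log2 fold change 0.17, and 0.86 in the offset fit) and Atp6v1g3 (0.81, and −0.13 in the offset fit) were not called lower in either fit. Ratios of Foxi1 to them were not taken. The log2 ratio of Foxi1 to Slc4a1 was −1.05, −1.23 and −0.47 in controls and 0.92, 1.09 and 0.62 in Pkd1 KO kidneys. Against Atp6v1b1, the proton pump subunit of intercalated cells and a known FOXI1 target, it was −1.64, −2.05 and −1.25 in controls and 0.08, 0.09 and 0.02 in Pkd1 KO kidneys. The differences of 1.79 and 1.71 each had an exact permutation p of 0.1. With the GC and length trend removed they were 1.04 and 1.21, with the groups apart in both. Against Aqp2, the water channel of the neighbouring principal cells, the ratio differed by 0.57 with overlapping groups (exact permutation p = 0.2), since Pkd1 KO 3 lay among the controls, and by 0.21 with the trend removed (exact permutation p = 0.5). Over 6 libraries, the 5 abundant protein-coding genes closest to Foxi1 in centred log2 CPM were Tollip, Pex26, Elmod3, Stambp and Stam2, with root mean square differences of 0.023 to 0.0472.

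**Figure D2:**
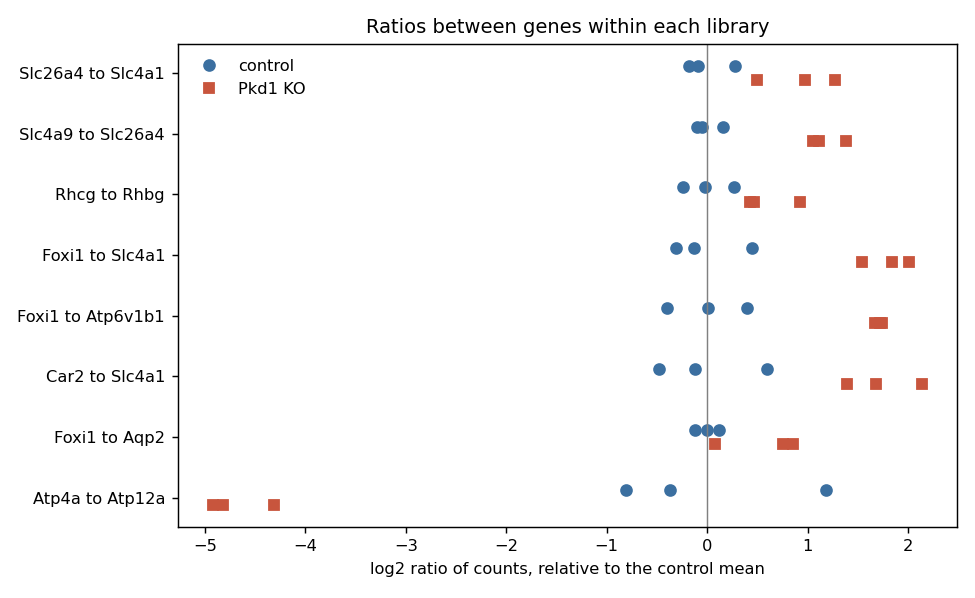
Log2 ratio of the counts of a pair of genes in each library, without correction for GC content and length, drawn relative to the control mean of that ratio (circles: 3 controls, squares: 3 Pkd1 KO kidneys). The groups are apart in 7 of 8 ratios and overlap for Foxi1 to Aqp2, and with the GC and length trend removed (not drawn) those of Slc26a4 to Slc4a1 overlap as well.

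Promoter sequences of RefSeq (GRCm38.p6) were available for 5 of the 10 genes. Those of the gene that fell furthest, of a type B gene that fell and of Foxi1 are shown to let them be compared, each as the 250 bases before the annotated start on the gene's own strand. Capitals mark matches to TGTTTAC, a forkhead core, to its relative TGTTTGC or to the TATA box TATAAA, searched on both strands. The last 2 motifs were chosen after the sequences were seen. The Atp4a stretch is chr7:30711959-30712208 (plus strand), that of Slc26a4 chr12:31559985-31560234 (minus strand) and that of Foxi1 chr11:34208090-34208339 (minus strand).
Atp4a: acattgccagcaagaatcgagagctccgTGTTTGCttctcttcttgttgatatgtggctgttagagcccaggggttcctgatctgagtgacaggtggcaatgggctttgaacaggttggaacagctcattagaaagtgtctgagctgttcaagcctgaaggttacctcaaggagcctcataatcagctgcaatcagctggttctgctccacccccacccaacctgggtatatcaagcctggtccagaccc
Slc26a4: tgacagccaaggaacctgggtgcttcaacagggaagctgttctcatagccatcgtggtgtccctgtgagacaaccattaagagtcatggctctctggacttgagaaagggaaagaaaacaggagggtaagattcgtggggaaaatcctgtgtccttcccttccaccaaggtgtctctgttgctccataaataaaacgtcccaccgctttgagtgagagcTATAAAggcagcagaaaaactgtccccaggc
Foxi1: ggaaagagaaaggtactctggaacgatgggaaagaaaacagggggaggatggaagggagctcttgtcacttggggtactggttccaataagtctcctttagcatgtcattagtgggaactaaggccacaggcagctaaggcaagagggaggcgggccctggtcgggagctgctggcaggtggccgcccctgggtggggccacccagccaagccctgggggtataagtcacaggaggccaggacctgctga

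TGTTTAC was found in 0 of the 5 promoters and in 3.65% of all 32851 RefSeq promoter windows of 300 bases (250 before and 50 after the start). TGTTTGC was found in Atp4a, 222 bases before the start, and in 5.07% of all windows. TATAAA was found in Slc26a4, 31 bases before the start, and in 13.6% of all windows.

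Rhcg (ENSMUSG00000030549) and Rhbg (ENSMUSG00000104445) encode Rh glycoproteins that carry ammonia across the membranes of intercalated and principal cells. Rhcg was counted at 105.7, 95.4 and 69.0 CPM in controls and 46.5, 49.95 and 47.4 CPM in Pkd1 KO kidneys. The groups were apart, with means of 90.0 ± 19.0 and 47.9 ± 1.79 CPM. On the log2 scale this was −0.91 ± 0.17 (SE; adjusted p = 0.00428), or 53.3% of the control level. Rhbg was much lower, at 4.70, 5.19 and 4.35 CPM in controls and 1.80, 1.98 and 1.33 CPM in Pkd1 KO kidneys. Every Pkd1 KO kidney had less than the lowest control, and the means were 4.74 ± 0.42 and 1.70 ± 0.34 CPM. Its log2 fold change was −1.48 ± 0.22 (SE; adjusted p = 0.00259), or 35.9% of the control level. Rhbg shares 61.4% of its exonic bases with Gm38392, an annotated gene on the same strand, and reads in shared bases may have been left out as ambiguous, so its level is uncertain. The log2 ratio of Rhcg to Rhbg was 4.49, 4.20 and 3.98 in controls and 4.69, 4.65 and 5.15 in Pkd1 KO kidneys, a difference of 0.60 (exact permutation p = 0.1). The red cell relatives Rhag and Rhd were not tested, each under 1 CPM in every library.

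Car2 (ENSMUSG00000027562) encodes carbonic anhydrase 2, the cytosolic enzyme that supplies protons and bicarbonate and that proximal tubule and other cells also make. It was by far the most abundant of the 10, at 423.4, 366.6 and 380.6 CPM in controls and 336.0, 366.5 and 329.5 CPM in Pkd1 KO kidneys. Pkd1 KO 2 lay at the level of control 2, and the means were 390.2 ± 29.6 and 344.0 ± 19.8 CPM. For Car2 the log2 fold change was −0.18 ± 0.14 (SE; adjusted p = 0.311), with a 95% interval from −0.50 to 0.14. The offset fit called it lower, at −0.53 ± 0.14 (adjusted p = 0.0165), a call lost there without control 1 (adjusted p = 0.0802), Pkd1 KO 2 (0.0597) or Pkd1 KO 3 (0.0740). The log2 ratio of Car2 to Slc4a1 lay between 2.77 and 3.84 in controls and between 4.64 and 5.39 in Pkd1 KO kidneys, a difference of means of 1.74 (exact permutation p = 0.1). With the GC and length trend removed the difference was 0.81, and the groups stayed apart.

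Insrr (ENSMUSG00000005640) encodes the insulin receptor-related receptor, an alkali sensor of type B cells. Controls spread widely, at 25.5, 37.0 and 13.8 CPM, while Pkd1 KO kidneys had 10.5, 9.70 and 9.24 CPM. The groups were apart, but control 3 lay close to the Pkd1 KO kidneys. Means were 25.4 ± 11.6 and 9.82 ± 0.64 CPM, and the log2 fold change was −1.37 ± 0.31 (SE; adjusted p = 0.00744). The offset fit gave −0.43 ± 0.20 and ended the call (adjusted p = 0.115), but without control 3 it called Insrr lower (−0.62, adjusted p = 0.00612). Insrr has the highest GC content of the 10, 57.45%. All 5 genes of the insulin receptor family list fell, with Insrr itself counted among the 5. Igf1r stood at −1.50 ± 0.40 (adjusted p = 0.0156, and −0.53 in the offset fit, adjusted p = 0.095). In the offset fit 1 of the 5, the adaptor Irs1, was called. Without the offset the count was 3 without Pkd1 KO 1 or Pkd1 KO 3, which ended the calls of Igf1r (adjusted p = 0.0655 and 0.0553), and its value was −0.84 without control 2.

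Kit (ENSMUSG00000005672) encodes the receptor tyrosine kinase KIT, which is present on intercalated cells and on mast cells. It had 17.6, 23.1 and 13.4 CPM in controls and 10.3, 10.6 and 9.62 CPM in Pkd1 KO kidneys. The lowest control was above the highest Pkd1 KO kidney, and the means were 18.01 ± 4.87 and 10.2 ± 0.50 CPM. Its log2 fold change was −0.83 ± 0.20 (SE; adjusted p = 0.0109). The offset fit gave −0.34 ± 0.13 and ended the call (adjusted p = 0.0774), but without control 3 it called Kit lower (−0.43, adjusted p = 0.0269). Kit is the longest of the 10, with 8911 exonic bases. Its ligand gene Kitl was not called (0.35 ± 0.17, adjusted p = 0.118) and had the opposite sign in the offset fit (−0.23, adjusted p = 0.201). Of 8 mast cell genes, 6 stayed under 1 CPM in every library, among them the mast cell protease Cpa3 at up to 0.135 CPM, and Ms4a2 was called higher (2.91 ± 0.57, adjusted p = 0.00468, and 1.88 in the offset fit). Summed mast cell CPM was 3.44 to 11.5 in controls and 5.76 to 11.4 in Pkd1 KO kidneys. In controls most of this sum was Hdc alone, at 2.64 to 10.8 CPM (4.41 to 6.37 CPM in Pkd1 KO kidneys). The sum thus says little about the other genes of the list, and the part of mast cells in the Kit counts was not tested.

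**Figure D3:**
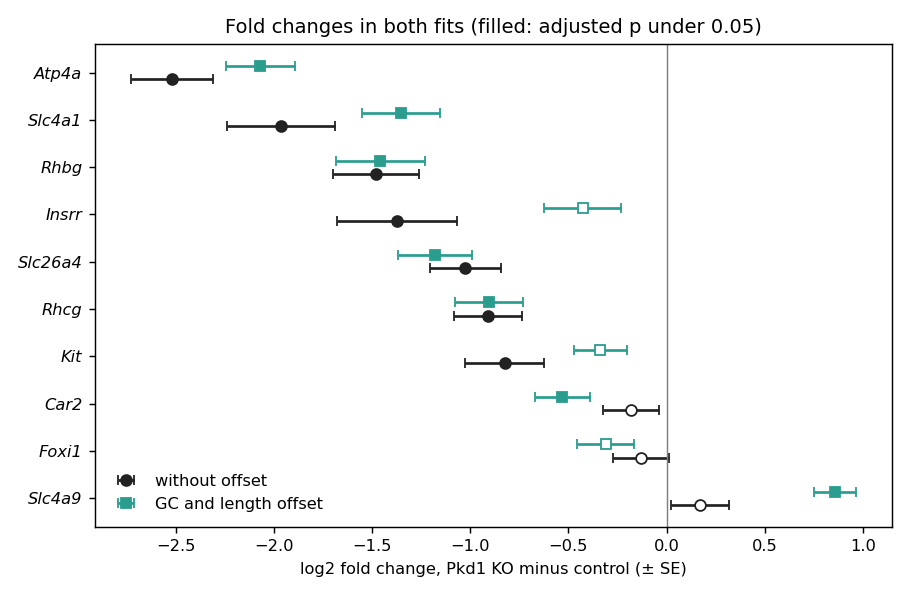
Log2 fold change of each gene, Pkd1 KO minus control, with SE, in edgeR's test without offset (circles) and with an offset for GC content and length (squares), n = 3 kidneys per group. Filled symbols passed an adjusted p of 0.05. Insrr and Kit lose their call with the offset, and Car2 (lower) and Slc4a9 (higher) gain one.

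Per length of exon the genes could be set against each other. In controls Car2 led with 161.1 CPM per kb of exon, followed by Rhcg at 40.3 and Slc26a4 at 30.8, which overlapped in their libraries. Atp4a (12.6), Slc4a9 (9.39), Foxi1 (9.24) and Slc4a1 (8.76 CPM per kb) came next, each overlapping its neighbour. Insrr (4.45), Rhbg (2.45) and Kit (2.02 CPM per kb) were lowest, also with overlap. In Pkd1 KO kidneys Car2 (142.0), Rhcg (21.5), Slc26a4 (15.1), Slc4a9 (10.6) and Foxi1 (8.45 CPM per kb) held the first places without overlap between neighbours. Slc4a1 (2.25) and Atp4a (2.19 CPM per kb) came after them, so Atp4a went from the fourth place to the seventh. Library order within the controls was shared by most genes. Control 3 had the lowest value for 9 of 10 and control 2 the highest for 7 of 10.

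**Figure D4:**
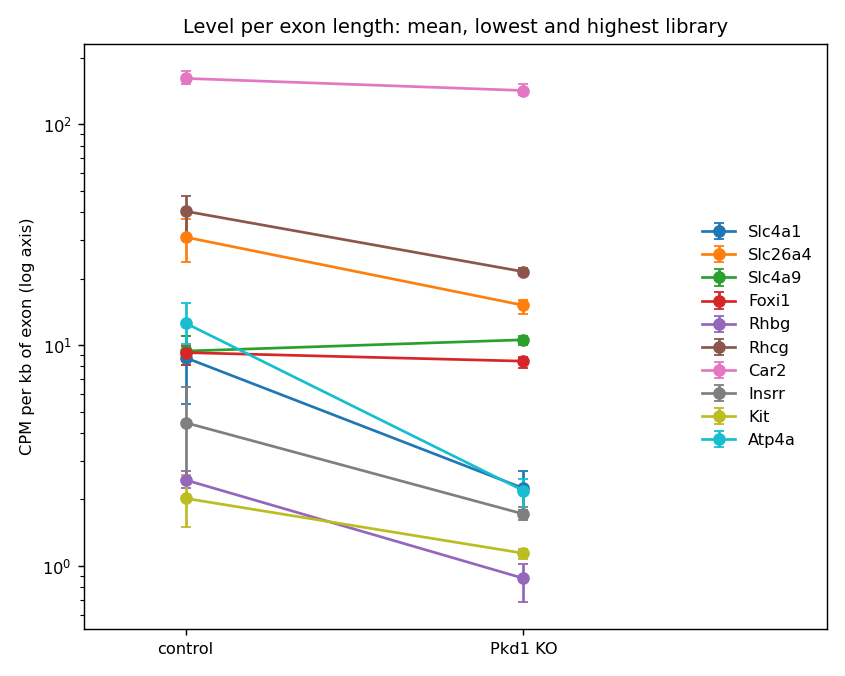
Mean CPM per kb of exon in each group on a log axis, with whiskers to the lowest and highest of 3 libraries. Atp4a and Slc4a1 drop from the level of Foxi1 and Slc4a9 to that of Insrr, while Foxi1 and Slc4a9 stay near their control level.

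Genes that share the cells or the task with the 10 also moved unevenly. Counts over these lists stand beside the 24.2% of all tested genes called lower and 22.7% called higher (19.5% and 15.0% in the offset fit). Of the 5 proton pump subunits typical of intercalated cells, Atp6v1b1 (−1.90 ± 0.25, adjusted p = 0.00235, and −1.55 in the offset fit) and Atp6v0a4 (−0.63 ± 0.14, adjusted p = 0.00671) fell. Atp6v1g3 rose (0.81 ± 0.20, adjusted p = 0.0102). The offset fit called 4 of 5 lower and turned Atp6v1g3 to −0.13 (adjusted p = 0.498). Of 10 further intercalated cell genes 6 fell and 0 rose, with a median of −0.60. The largest changes were in the bicarbonate transporter Slc4a8 (−1.78 ± 0.36, −0.87 in the offset fit), the type A water channel Aqp6 (−1.68 ± 0.23) and the potassium channel Kcnma1 (−1.14 ± 0.25, −0.66 and adjusted p = 0.0882 in the offset fit). Oxgr1, a receptor of type B cells for oxoglutarate, was at 30.1 to 36.8 CPM in controls and 34.5 to 38.5 CPM in Pkd1 KO kidneys and was not called (0.11, adjusted p = 0.524, and −0.28 in the offset fit, adjusted p = 0.0946).

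Regulators of the choice between intercalated and principal cells included 6 lower and 0 higher of 10. Tfcp2l1, a transcription factor of the collecting duct that acts with Foxi1 there, fell by 1.38 ± 0.21 (log2; adjusted p = 0.0027), from 247.6 ± 68.7 to 94.9 CPM. It stood at −0.98 in the offset fit (adjusted p = 0.00236). Notch1, whose signal favours principal cells, fell by 1.78 ± 0.32 (log2; adjusted p = 0.00362), but stood at −0.47 in the offset fit (adjusted p = 0.0241). The Notch target Hes1 was not called (−0.02 ± 0.16, adjusted p = 0.912) except in the offset fit (−0.40, adjusted p = 0.047). Principal cell genes were lower in 5 of 7 tested cases with a median of −0.64, led by the sodium channel subunit Scnn1g (−0.74 ± 0.14, adjusted p = 0.0043). That count fell to 1 without control 1, to 2 without any 1 of the Pkd1 KO libraries and to 3 with upper-quartile scaling. In the neighbouring connecting and distal convoluted tubule list, 4 of 6 genes were lower and 1 higher, with a median of −0.84. The offset fit called 5 of them lower and 0 higher. The decrease was thus not confined to intercalated and principal cell genes.

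In the families of the transporters, 6 of 10 SLC4 genes were called lower and 0 higher. The 6 include Slc4a1 and Slc4a8, already given above, so this count is not separate from theirs. Also lower were Slc4a11 (−1.68 ± 0.25, adjusted p = 0.00267, and −1.13 in the offset fit) and Slc4a5 (−1.82 ± 0.33, adjusted p = 0.0036, and −1.36 in the offset fit). Slc4a2, the widely expressed AE2, fell by 1.10 ± 0.18 (log2; adjusted p = 0.0028) and stood at −0.06 in the offset fit (adjusted p = 0.763). In the offset fit 4 SLC4 genes were lower and 2 higher, Slc4a9 being the larger increase, and without control 2 1 was higher. Of 8 tested SLC26 genes, 2 fell (Slc26a1 and Slc26a4) and Slc26a10 rose (1.23 ± 0.22, adjusted p = 0.00384, and 1.77 in the offset fit). Of 13 tested carbonic anhydrases, 3 fell and 1 rose. For lower calls the SLC26 and carbonic anhydrase lists were near the 24.2% of all tested genes. For higher calls both were below the 22.7% of all tested genes. Car14, a membrane form, fell by 1.05 ± 0.19 (log2; adjusted p = 0.0039) and the cytosolic Car13 rose by 1.41 ± 0.21 (adjusted p = 0.00259), or 0.59 in the offset fit (adjusted p = 0.0223). Single libraries moved these counts, to 1 lower without control 1, Pkd1 KO 1 or Pkd1 KO 2 and to 2 higher without control 3, and the offset fit called 5 lower.

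Ammonia that Rhbg and Rhcg carry comes from glutamine breakdown in the proximal tubule, and 3 of 6 genes of that supply were lower and 0 higher. Slc38a3, the glutamine carrier of that segment, fell by 2.39 ± 0.21 (log2; adjusted p = 0.00167) and stood at −1.74 in the offset fit (adjusted p = 0.000976). It was also the third closest gene to Atp4a in centred log2 CPM over the 6 libraries, after Reep6 and B3gnt7 and before Ache and Slc13a3, with root mean square differences of 0.181 to 0.281. Acid and alkali sensors were lower in 3 of 5 cases, Insrr, Gpr4 and the kinase Ptk2b (−1.30 ± 0.22, adjusted p = 0.00308, and −0.48 in the offset fit). Gpr4 (−0.67 ± 0.21, adjusted p = 0.0304) lost its call without control 1 (adjusted p = 0.0779), Pkd1 KO 1 (0.0992) or Pkd1 KO 2 (0.121).

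**Figure D5:**
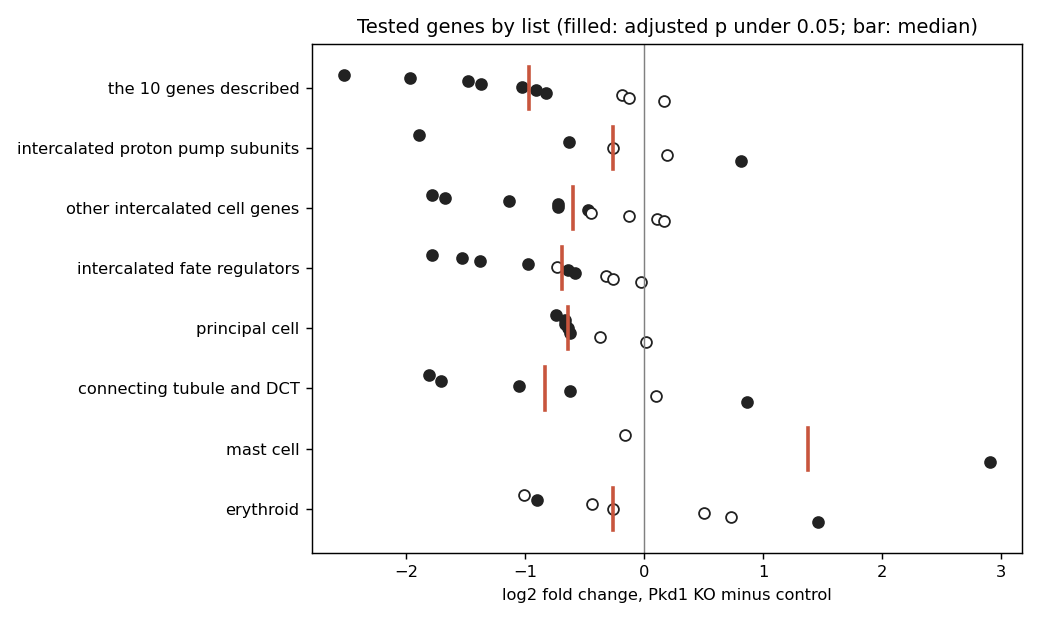
Log2 fold change, Pkd1 KO minus control, of each tested gene of 8 lists (points, filled where the adjusted p is under 0.05), with the list's median as a bar. All lists but that of mast cells have medians below 0, also that of the connecting and distal convoluted tubule (DCT). Single genes of each list lie on both sides or near 0.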

How the data were processed

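The authors deposited raw read counts per gene, not normalized, in 7 tables of STAR's layout. Per the submitters' processing notes the tools were STAR 2.6.1e, cutadapt 4.0 and FastQC 0.11.8, with the build GRCm39, and no source used here gives the gene annotation. The unstranded column was used (the first strand held 49.1% to 49.96% of stranded reads), so antisense neighbours are not separated. Both runs of control 1 were summed to 1 sample, and the 4 lines naming no gene (22.9% to 26.3% of reads) were left out.

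Exon lengths and GC content came from GENCODE M21 by identifier. Symbols came from a separate list of gene names, also by identifier (52073 of 56923 had a symbol). Groups were compared with edgeR 4.0.16 (R 4.3.3; quasi-likelihood test, filterByExpr, TMM, Benjamini-Hochberg over 18273 genes). Values after ± are SD for CPM and SE for log2 fold changes. Ratios used counts with 0.5 added. For the offset fit each gene's log2 CPM was first centred on its mean over the libraries. A loess (span 0.3, R's default form) of these centred values on GC content and log2 exon length was then taken in each library. The offset fit would also remove a real change shared by long or GC-rich genes. The loess was run in 3 forms. A robust form was for a time preferred after its results were seen, because its median fold change lay nearer 0 and its counts nearer earlier results of these data. The default form was restored as the planned one, and the robust and degree-1 forms count as added after seeing the data, as do the offset fits without each library and the ratios less each library's trend.

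The members and lists were chosen with earlier results of these data known. From lists, up to 3 genes called in a direction were eligible to be named (mean log2 CPM not under 0). Atp12a, Atp4b, Slc4a5, Slc4a2, Hbb-bs, Cpa3, Ms4a2, Hdc, Hes1, Oxgr1, Kitl, Irs1, Rhag and Rhd were named after their values were seen, as were 2 of 3 motifs and the promoters shown. On simulated counts of 17901 genes edgeR recovered 3, 26, 40 and 50 of 50 genes changed 1.5-, 2-, 3- and 4-fold, with 11 false among 130 calls. No other genes were changed there, and no GC, length or project trend was drawn. These rates therefore do not carry over to the data, where 46.9% of genes were called.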

Additional observations from a re-analysis of the deposited data

How the results depend on the processing

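Slc4a1, Slc26a4, Rhbg, Rhcg and Atp4a kept their direction and call under the 13 alternatives other than those added later (other scalings, DESeq2, no filter, offset, replicate block, 1 run of control 1, each library left out), with log2 fold changes of −2.26 to −1.35, −1.23 to −0.86, −1.61 to −1.31, −1.12 to −0.74 and −2.70 to −2.07. Foxi1 was called under 0 of the 13 (−0.31 to 0.04).

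With the offset Slc4a9 was called higher (0.86, the 1 member called higher) and Car2 lower (−0.53), Insrr (−0.43) and Kit (−0.34) lost their calls, and all genes called higher fell to 2668. The cause was not tested. The robust and degree-1 loess called 6196 and 6078 genes against 6141, the degree-1 form 2719 higher. They left the members' calls the same, at 0.88 and 0.84 for Slc4a9, −0.49 and −0.53 for Car2, −0.40 and −0.44 for Insrr and −0.31 and −0.36 for Kit. Signs turned with the offset for 15 list genes, of which 10, among them Kitl and Oxgr1, were called in neither fit. The other 5 were Atp6v0d2 (−0.57), Atp6v1g3 (−0.13), Fxyd4 (−0.37), S100g (−0.0067) and Pvalb (−0.57).

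Without 1 library, 5071 to 10318 genes were called (8579 with all), 2340 to 4877 higher and 2731 to 5441 lower, and 7 members stayed lower in each. The lowest counts were those without Pkd1 KO 2. With the offset as well, all genes called numbered 4119, 2857 and 3465 without Pkd1 KO 1, 2 and 3, 3710 without control 1 and 7544 without control 3. Of these 1704, 1202, 1523 and 1502 were higher and 2415, 1655, 1942 and 2208 lower in the first 4 of these fits, and 2601 were higher without control 2. Genes called over the other lists fell from 49 in the offset fit of all libraries to 25 without Pkd1 KO 2 and 30 without control 1. Members called lower ranged from 5 to 9. There Slc4a9 lay between 0.83 and 0.89 (0.85 without Pkd1 KO 3). Car2 was called at −0.54 without Pkd1 KO 1 or control 2 and −0.62 without control 3. Insrr was not called at −0.48, −0.45 and −0.36 without Pkd1 KO 1, 2 and 3, −0.40 without control 1 and −0.24 without control 2. Kit was not called at −0.36, −0.36, −0.30, −0.33 and −0.26 in the same fits. Without control 3 Insrr (−0.62), Kit (−0.43) and Foxi1 (−0.43) were all called lower. Without 1 library or with 1 run of control 1, each of the 8 ratios moved by less than its SD pooled over both groups, and a replicate block leaves a difference of means as it is. With the GC and length trend removed (added after seeing the data) Slc26a4 to Slc4a1 moved to 0.19, Slc4a9 to Slc26a4 to 2.01, Foxi1 to Slc4a1 to 1.04, Foxi1 to Atp6v1b1 to 1.21, Car2 to Slc4a1 to 0.81 and Foxi1 to Aqp2 to 0.21.

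No sign of pairing by replicate number was seen: deviations of same-numbered samples correlated at 0.0383, −0.0843 and −0.0291. Those of differently numbered samples ranged from −0.0995 to 0.0973. The labels name no pairs, and correlations this small cannot decide whether there were any. With the replicate block edgeR called 7397 genes and 7 members lower.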
